A study of Mus musculus with 6 samples.

Results

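The machinery that copies DNA was followed here as 44 genes of DNA replication and S phase, in RNA from injured neonatal tendon. They were taken from a fixed list of symbols covering the MCM helicase, origin licensing, helicase activation, the polymerases, the sliding clamp, strand joining, nucleotide synthesis, G1/S regulators and replication-linked chromatin factors. All 44 were found among the 18099 genes of the deposited table, and all 44 were among the 14261 genes tested.

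The study asked what loss of AMPKα1 in macrophages does to the regeneration of neonatal tendon. Repair tissue of the transected Achilles tendon was sequenced from 3 LysM-Cre; Ampkα1fl/fl mice and 3 control mice, which were Ampkα1fl/fl littermates without Cre. Both groups carried the floxed alleles, both were neonatal, both were injured, and the study's text places the collection a week after injury. LysM-Cre recombines in myeloid cells, so the deletion concerns macrophages, monocytes and neutrophils, whereas the RNA came from the whole repair tissue. The libraries are called control mouse 1 to 3 and LysM-Cre mouse 1 to 3 after the replicate numbers of the labels, and each is a separate mouse.

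Before S phase, the origin recognition complex, Cdc6 and Cdt1 load the MCM helicase onto DNA, and Cdc45 and the GINS complex then turn it into a moving helicase. Polymerase alpha with primase starts each new strand, polymerases delta and epsilon extend it on the clamp PCNA, and FEN1 and DNA ligase 1 join the pieces. Most of these genes are transcribed at the G1/S transition by E2F factors, whereas mitosis genes such as Ccnb1 and Plk1 peak later, in G2 and M phase, and many of them carry a CHR element in their promoters.

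Library totals were between 18076805 and 19479887 reads, and the 10 most abundant genes took between 17.2% and 18.4% of them. The labels were checked on Lyz2, the lysozyme gene into which LysM-Cre is inserted, and on Prkaa1, which encodes AMPKα1. Lyz2 stood at 390, 425 and 404 CPM (reads scaled to library size) in the control mice and at 0.469, 0.811 and 0.432 CPM in the LysM-Cre mice. In the edgeR test Lyz2 fell by 9.46 on the log2 scale (edgeR adjusted p = 3.41e-06). The groups therefore also differed in Lyz2 itself, and its part in other differences between them was not tested. Prkaa1 stood at 39.2, 37.6 and 37.8 CPM against 32.6, 40.6 and 35.2 CPM and overlapped between the groups (edgeR adjusted p = 0.744), in RNA that holds non-myeloid cells too. Of the tendon fibroblast markers, 11 of 11 were detected, with a summed level of 94678 to 111669 CPM. Over all genes tested, 128 passed an edgeR adjusted p of 0.05 (0.898%), 81 of them lower (0.568%) and 47 higher in the LysM-Cre mice.

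By median, the replication genes were slightly lower in the LysM-Cre mice, and edgeR called 0 of them. All 44 had a log2 fold change below 0, against 50.6% of all genes tested. The members moved together within each mouse, so the 44 are not independent observations. Their mean log2 CPM overlapped between the groups, at 4.38 in LysM-Cre mouse 2 and 4.30 in control mouse 3. The median log2 fold change of the members was -0.34 (-21.1% in level), beside a median of -0.0020 over all genes tested. With a skeletal muscle score (the mean log2 CPM of 18 muscle genes) as a covariate in edgeR, the members' median was -0.15. With this covariate 40 of 44 were lower, against 7499 of the 14261 genes tested. The values ran from -0.75 for Tk1, a thymidine kinase, to -0.032 for Pola2, a subunit of polymerase alpha. With edgeR and Benjamini-Hochberg adjustment over all genes tested, 0 of the 44 passed, where 0.568% of all genes were called lower. The smallest edgeR adjusted p was 0.107 for Tk1. With DESeq2, 2 of the 44 were called lower, Tk1 and Lig1, where 2.67% of all genes were. Of the 44, limma on TPM called 0, where it called 68 of the 14261 genes tested. In bulk tissue, fewer dividing cells and less of these transcripts per cell cannot be told apart.

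At an unadjusted edgeR p under 0.05, 14 members were lower, against 8.55% of all genes tested. Members in this count were Mcm3, Mcm5, Cdt1, Gins1, Pola1, Pold1, Pold2, Pcna, Rfc3, Rfc5, Fen1, Lig1, Tk1 and Ccne1. The count was 5, 5 and 23 without control mouse 1, 2 and 3, and 5, 34 and 7 without LysM-Cre mouse 1, 2 and 3. Of these settings, the share of all genes was taken only without LysM-Cre mouse 2 (10.4%), so the other counts have no background beside them. Blocking on the replicate number gave 25 (8.31% of all genes tested) and 0 called by edgeR after adjustment, and the muscle covariate gave 4 and 0. For the muscle covariate the share of all genes at an unadjusted p was not taken.

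The 3 LysM-Cre mice did not stand equally low. LysM-Cre mouse 1 lay below every control mouse in 41 of the 44 genes and LysM-Cre mouse 3 in 39, whereas LysM-Cre mouse 2 did so in 10. Over all genes tested the same position was taken by 32.4%, 31.1% and 29.5% of genes in these 3 mice. LysM-Cre mouse 2 was the highest of its group in 39 of the 44. Among the controls, control mouse 3 was the lowest in 42 of the 44 and control mouse 2 the highest in 38. The groups did not overlap in 10 members, against 11.4% of all genes tested: Cdt1, Gins1, Pola1, Pold1, Pold2, Rfc3, Fen1, Lig1, Tk1 and Ccne1. Without LysM-Cre mouse 2, Cdc6 and Uhrf1 passed the edgeR test (adjusted p = 0.0385 and 0.049), where 0.95% of all genes were called lower, and the 34 members lower at an unadjusted p compare with 10.4% of all genes.

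**Figure D1:**
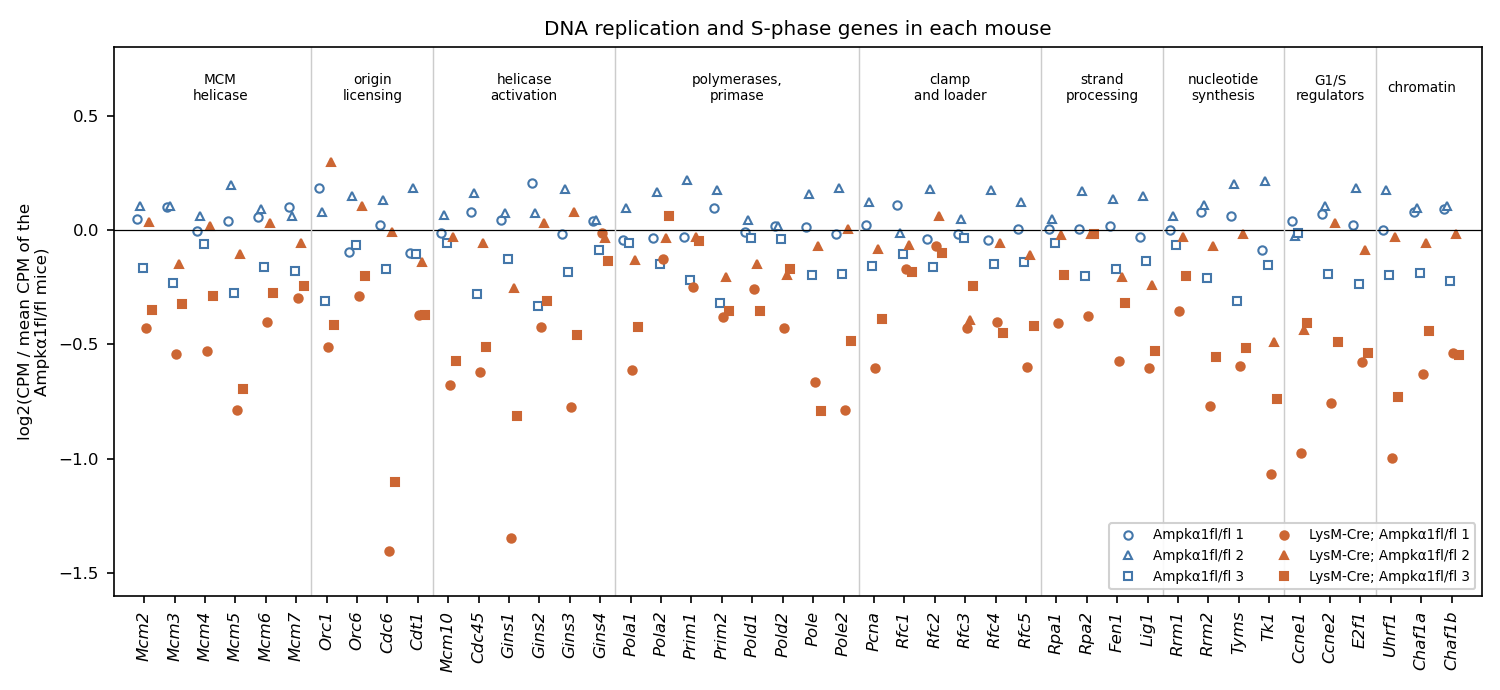
Level of each of the 44 replication genes in each of the 6 mice, as log2 of its CPM over the mean CPM of the 3 Ampkα1fl/fl mice, grouped by role. Filled circles and squares (LysM-Cre mice 1 and 3) lie below all open symbols in 41 and 39 of the genes, and filled triangles (LysM-Cre mouse 2) in 10.

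The promoters of these genes are shown because they carry the letters by which S-phase genes are commonly recognised, and because the mitosis genes set beside them later carry others. Promoter sequences came from RefSeq (GRCm38.p6), from 250 bases before the transcription start to 50 after it, and 36 of the 44 members had an entry. E2F matches were searched as TTTGGCGC, TTTCCCGC, TTTGCCGC and TTTCGCGC, the CHR element as TTTGAA and the CCAAT box as CCAAT, each on both strands. An E2F match stood in 14 of the 36 (38.89%), against 3 of 39 mitosis genes (7.692%), 2.605% of 27025 promoters and 4.459% of the promoters of genes tested. A CHR match stood in 5 (13.89%) of the replication promoters, in 29 (74.36%) of the mitosis promoters, in 20.23% of all promoters and in 14.68% of those of genes tested. A CCAAT match stood in 22 (61.11%), 29 (74.36%), 41.06% and 42.77%. Of the E2F matches, 1 overlapped a match of another motif. The 250 bases before the start of Mcm5 (chr8:75109259-75109508, plus strand) and of Mcm6 (chr1:128359706-128359955, minus strand) are given with the E2F matches in capitals. The run in Mcm5 and the first run in Mcm6 each hold overlapping matches on both strands.
Mcm5: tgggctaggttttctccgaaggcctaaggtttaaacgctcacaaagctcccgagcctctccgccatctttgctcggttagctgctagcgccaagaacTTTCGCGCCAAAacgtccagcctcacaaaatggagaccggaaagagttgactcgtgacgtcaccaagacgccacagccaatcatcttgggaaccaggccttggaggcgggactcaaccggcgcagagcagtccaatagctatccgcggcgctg
Mcm6: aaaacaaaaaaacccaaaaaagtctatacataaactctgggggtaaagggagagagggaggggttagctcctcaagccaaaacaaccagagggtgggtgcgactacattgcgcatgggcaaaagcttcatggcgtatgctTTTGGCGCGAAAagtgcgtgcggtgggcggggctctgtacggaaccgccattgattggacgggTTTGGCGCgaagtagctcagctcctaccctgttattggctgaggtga

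Shorter windows around the match, in the direction of the gene, show the same letters in members of other roles and the CHR element in Plk1. They lie at chr11:98908004-98908029 for Cdc6, chr8:122568038-122568063 for Cdt1, chr4:108579418-108579443 for Orc1, chr7:13278843-13278868 for Lig1, chr17:56304119-56304144 for Uhrf1 and chr7:122159456-122159479 for Plk1, with the match in capitals. Members with an E2F match had a median log2 fold change of -0.35 (14 genes) and members without one -0.34 (22 genes), and their ranges overlapped, from -0.71 to -0.16 and from -0.75 to -0.032.
Cdc6: cggtggagaGCGGGAAAtcgcctggg
Cdt1: aactaccttTTTGGCGCcatggcgca
Orc1: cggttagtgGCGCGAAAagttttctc
Lig1: ccaaagtgcGCGCGAAAtctgtgtgg
Uhrf1: cgagtcgggTTTCGCGCgcccaggcg
Plk1: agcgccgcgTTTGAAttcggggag

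**Figure D2:**
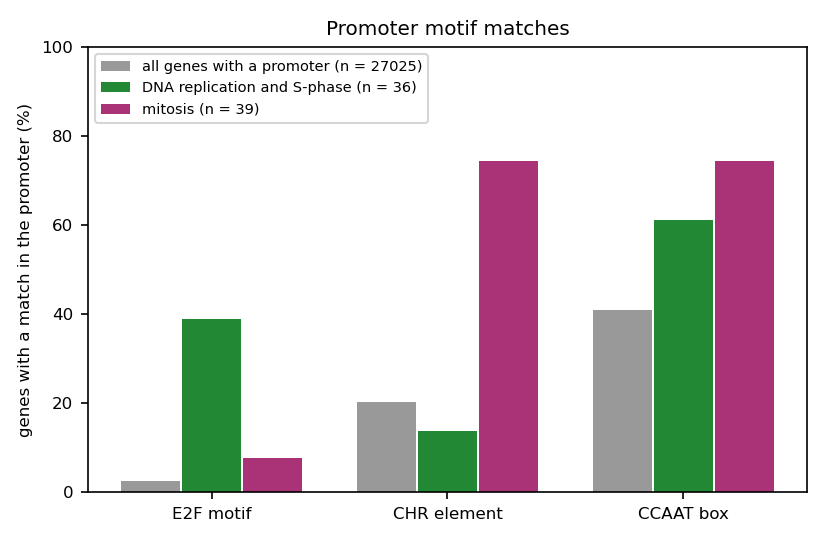
Share of genes with at least 1 match to the E2F motif, the CHR element or the CCAAT box in the 300-base RefSeq promoter, for all 27025 genes with a promoter, 36 replication genes and 39 mitosis genes. E2F matches stood in 38.89% of the replication promoters and 7.692% of the mitosis promoters, and CHR matches in 13.89% and 74.36%.

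The MCM2 to MCM7 subunits form the ring helicase that unwinds DNA, and all 6 were lower, with a median log2 fold change of -0.24. Mcm5 was the lowest, at 43.8, 48.9 and 35.3 CPM in control mice 1, 2 and 3 and at 24.7, 39.7 and 26.3 CPM in LysM-Cre mice 1, 2 and 3. LysM-Cre mouse 2 lay between the controls, the other two lay below them, and the log2 fold change was -0.50 ± 0.20 (SE; edgeR adjusted p = 0.329). Mcm2 read 51.3, 53.3 and 44.1 CPM in the controls and 36.9, 50.8 and 38.9 CPM in the LysM-Cre mice. Again LysM-Cre mouse 2 lay within the control range, and the log2 fold change was -0.23 ± 0.14 (SE; edgeR adjusted p = 0.493). Mcm7 differed least, at 53.7, 52.2 and 44.2 against 40.7, 48.1 and 42.3 CPM. Its groups overlapped, with a log2 fold change of -0.20 ± 0.10 (SE; edgeR adjusted p = 0.426). Mcm3, Mcm4 and Mcm6 gave -0.33, -0.25 and -0.20 on the same scale. The Mcm5 promoter printed above holds a single run of 2 overlapping E2F matches, and the Mcm6 promoter holds 3 matches. Mcm5 was the lowest of the 6 genes and Mcm6 among the least different of them. Mcm3 and Mcm7 also held E2F matches.

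Origin licensing factors mark and load the sites where replication starts, and all 4 were lower, with a median log2 fold change of -0.23. Cdc6, the ATPase that recruits the helicase to the origin complex, read 8.94, 9.67 and 7.84 CPM in the controls and 3.34, 8.76 and 4.11 CPM in the LysM-Cre mice. It showed the widest split inside the LysM-Cre group, since mice 1 and 3 lay far below the controls and mouse 2 lay among them. Its log2 fold change was -0.71 ± 0.35 (SE; edgeR adjusted p = 0.421), and -1.24 without LysM-Cre mouse 2. Cdt1, the loader that works with Cdc6, was at 14.7, 17.9 and 14.6 CPM against 12.2, 14.3 and 12.2 CPM, so its groups did not overlap (log2 fold change -0.29 ± 0.12, SE; edgeR adjusted p = 0.336). Orc6, a subunit of the origin recognition complex, differed least, at 16.6, 19.6 and 16.9 against 14.5, 19.04 and 15.4 CPM. Its groups overlapped (log2 fold change -0.12 ± 0.13, SE; edgeR adjusted p = 0.735). Orc1, the largest subunit, was counted at 35 to 51 reads per control mouse and 32 to 54 reads per LysM-Cre mouse, with a log2 fold change of -0.16 ± 0.28 (SE).

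Helicase activation converts the loaded ring into the working form, and its 6 members had a median log2 fold change of -0.36. Gins1, a subunit of the 4-part GINS complex, read 5.19, 5.30 and 4.61 CPM in the controls and 1.98, 4.22 and 2.86 CPM in the LysM-Cre mice. All LysM-Cre mice lay below all controls, and the log2 fold change was -0.74 ± 0.27 (SE; edgeR adjusted p = 0.286). Gins4, another subunit of the same complex, was nearly level, at 18.5, 18.6 and 17.0 against 17.9, 17.6 and 16.4 CPM. LysM-Cre mice 1 and 2 lay within the control range, and its log2 fold change was -0.060 ± 0.079 (SE; edgeR adjusted p = 0.791). The subunits of the GINS complex therefore covered nearly the whole range seen in the list, with Gins2 at -0.22 and Gins3 at -0.34. Mcm10 and Cdc45, which join the helicase as it is activated, stood at -0.40 and -0.38, both with overlapping groups.

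The polymerases and primase had a median log2 fold change of -0.29 over 8 genes. Pole, the catalytic subunit of polymerase epsilon on the leading strand, read 21.3, 23.5 and 18.4 CPM in the controls and 13.3, 20.1 and 12.2 CPM in the LysM-Cre mice. LysM-Cre mouse 2 lay above the lowest control, and the log2 fold change was -0.47 ± 0.20 (SE; edgeR adjusted p = 0.347). Pola2, the regulatory subunit of polymerase alpha, was at 21.1, 24.3 and 19.5 CPM against 19.8, 21.1 and 22.5 CPM. The groups overlapped fully, with a log2 fold change of -0.032 ± 0.10 (SE; edgeR adjusted p = 0.926). Its catalytic partner Pola1 did not overlap between the groups and stood at -0.38 ± 0.13 (SE). Pold1 and Pold2, subunits of polymerase delta, did not overlap either and stood at -0.25 and -0.26, with standard errors of 0.074 and 0.091. Pole2 gave -0.38 (SE 0.22), and the primase subunits Prim1 and Prim2 gave -0.11 and -0.31.

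The sliding clamp PCNA tethers polymerases to DNA and is opened by the RFC clamp loader, and these 6 genes had a median log2 fold change of -0.32. Pcna read 90.4, 97.0 and 79.9 CPM in the controls and 58.7, 84.2 and 68.1 CPM in the LysM-Cre mice. LysM-Cre mouse 2 lay above the lowest control, and the log2 fold change was -0.34 ± 0.14 (SE; edgeR adjusted p = 0.321). Rfc5 was the lowest of the loader genes, at 18.4, 19.9 and 16.6 against 12.1, 17.0 and 13.7 CPM. Its groups overlapped through LysM-Cre mouse 2 (log2 fold change -0.36 ± 0.14, SE; edgeR adjusted p = 0.307). Rfc2 was the highest, at 36.4, 42.3 and 33.4 against 35.6, 39.0 and 34.9 CPM. All LysM-Cre mice lay inside the control range, with a log2 fold change of -0.033 ± 0.099 (SE; edgeR adjusted p = 0.922). Rfc3 had the smallest p of the loader genes (edgeR adjusted p = 0.161) and did not overlap between groups, at -0.35, whereas Rfc1 and Rfc4 stood at -0.14 and -0.29.

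Strand processing covers RPA, which coats single strands, FEN1, which trims Okazaki fragments, and DNA ligase 1, which seals them. Lig1 was the lowest of these 4 genes, at 38.0, 43 and 35.4 CPM in the controls and 25.6, 32.9 and 26.9 CPM in the LysM-Cre mice. All LysM-Cre mice lay below all controls, and the log2 fold change was -0.45 ± 0.12 (SE; edgeR adjusted p = 0.152; DESeq2 adjusted p = 0.0372). Rpa2 was the highest, at 25.1, 28.1 and 21.7 against 19.2, 24.7 and 24.6 CPM. LysM-Cre mice 2 and 3 lay within the control range, and the log2 fold change was -0.13 ± 0.14 (SE; edgeR adjusted p = 0.729). Fen1 did not overlap between the groups, at -0.36 ± 0.12 (SE), and Rpa1 stood at -0.20 ± 0.10 (SE).

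Nucleotide synthesis supplies the deoxynucleotides for S phase, and its 4 genes had a median log2 fold change of -0.39. Tk1, which phosphorylates thymidine in S-phase cells, was the lowest of all members, at 26.6, 32.8 and 25.5 CPM in the controls and 13.5, 20.2 and 17.0 CPM in the LysM-Cre mice. All LysM-Cre mice lay well below the lowest control, and the log2 fold change was -0.75 ± 0.17 (SE; edgeR adjusted p = 0.107; DESeq2 adjusted p = 0.00242). Leaving out any 1 mouse kept its log2 fold change between -0.89 and -0.61. Rrm2, the S-phase subunit of ribonucleotide reductase, read 45.6, 46.5 and 37.3 against 25.3, 41.0 and 29.3 CPM. Its groups overlapped through LysM-Cre mouse 2 (log2 fold change -0.43 ± 0.18, SE; edgeR adjusted p = 0.345). The larger subunit, Rrm1, differed least in this role, at 89.6, 93.3 and 85.6 against 70.0, 87.7 and 77.9 CPM. LysM-Cre mice 1 and 3 lay below the controls and mouse 2 among them, with a log2 fold change of -0.19 ± 0.088 (SE; edgeR adjusted p = 0.391). Tyms, which makes thymidylate, gave -0.35 ± 0.19 (SE).

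Among the G1/S regulators, Ccne1 and Ccne2 encode cyclins E1 and E2, the partners of CDK2 at the start of S phase, and E2f1 encodes a factor that activates replication genes. Ccne1 read 14.7, 13.99 and 14.1 CPM in the controls, which lay close together, and 7.25, 10.5 and 10.8 CPM in the LysM-Cre mice. The groups did not overlap, and the log2 fold change was -0.58 ± 0.16 (SE; edgeR adjusted p = 0.161; DESeq2 adjusted p = 0.06). Ccne2 read 14.9, 15.2 and 12.4 against 8.40, 14.5 and 10.1 CPM. Here LysM-Cre mouse 2 lay among the controls, and the log2 fold change was -0.37 ± 0.21 (SE; edgeR adjusted p = 0.482). E2f1 stood at -0.38 ± 0.17 (SE), also with overlapping groups.

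The chromatin factors Uhrf1, which brings DNA methylation to new strands, and Chaf1a and Chaf1b, which place histones on them, completed the list. Uhrf1 read 45.9, 51.9 and 40.2 CPM in the controls and 23.1, 45.1 and 27.7 CPM in the LysM-Cre mice. As for Cdc6, mice 1 and 3 lay far below the controls and mouse 2 among them, and the log2 fold change was -0.53 ± 0.24 (SE; edgeR adjusted p = 0.386). Chaf1b was the least different of the 3, at 15.3, 15.5 and 12.3 against 9.91, 14.2 and 9.84 CPM. Its groups overlapped through LysM-Cre mouse 2 (log2 fold change -0.35 ± 0.18, SE; edgeR adjusted p = 0.435), and Chaf1a gave -0.36 ± 0.16 (SE).

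Per transcript length the members differed widely in level. Pcna stood above every other member at 189 ± 15.03 TPM (scaled to transcript length and library total; mean ± SD, n = 3) in the controls and 151 ± 31.7 TPM in the LysM-Cre mice. Mcm6, at 65.7 ± 5.60 TPM, and Rfc2, at 62.04 ± 6.26 TPM, followed in the controls, and these neighbours did not differ beyond their spread. Orc1 was the lowest, at 1.69 ± 0.288 TPM in the controls and 1.52 ± 0.563 TPM in the LysM-Cre mice. Cdc6, at 4.07 ± 0.365 TPM, and Mcm10, at 4.16 ± 0.122 TPM, lay next above it and did not differ beyond their spread. The MCM subunits were within 27.2 ± 3.98 TPM for Mcm5, the lowest of them, and the value given for Mcm6, the highest.

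**Figure D3:**
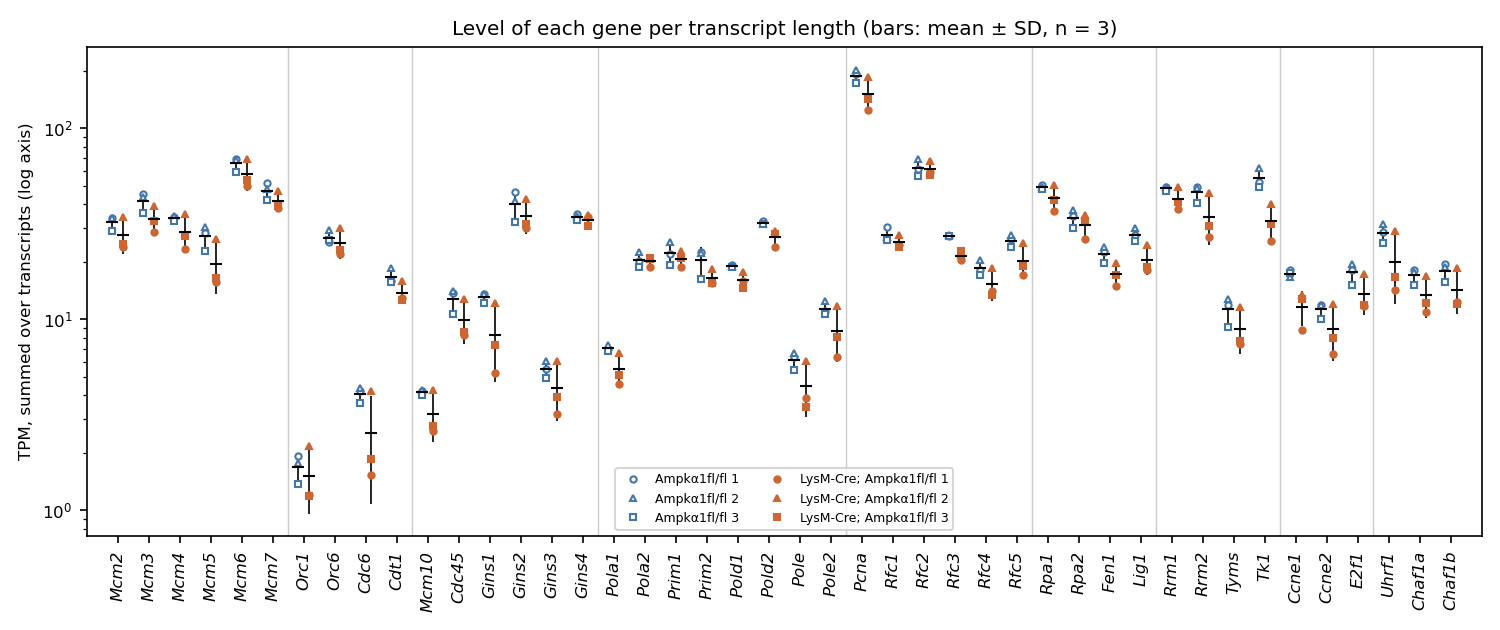
Level of each replication gene in TPM summed over its transcripts, on a log axis, for each mouse, with the mean and SD of the 3 mice of each group. Pcna is highest (189 TPM in the Ampkα1fl/fl mice) and Orc1 lowest (1.69 TPM).

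The mitosis genes lay lower still by median, a difference between lists that was described and not tested. The 43 mitosis genes set beside them had a median log2 fold change of -0.57, and 42 were lower. The members' median lay 0.23 above that value on the log2 scale, and between 0.22 and 0.30 above it under each other setting tried. Of the mitosis genes, 41 were lower at an unadjusted edgeR p under 0.05, 0 were called by edgeR after adjustment, 26 by DESeq2 and 0 by limma on TPM. Without LysM-Cre mouse 2, edgeR called 4 of them, Ccnb1 included (edgeR adjusted p = 0.0384), and 1 with at least 10 reads required in every sample. Hmmr, a spindle protein, was the lowest at -0.75 ± 0.20 (SE; edgeR adjusted p = 0.156). Pttg1, which encodes securin, was the only one above 0, at 0.090 ± 0.11 (SE; edgeR adjusted p = 0.779; -0.043 with the muscle covariate). The groups did not overlap in 39 mitosis genes, beside the 10 replication genes and 11.4% of all genes tested. Over all genes tested, 8.55% were lower at an unadjusted edgeR p under 0.05, and edgeR called 0.568% lower after adjustment. DESeq2 called 2.67% of all genes lower.

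Ccnb1, cyclin B1, read 32.0, 34.1 and 29.5 CPM in the controls and 17.5, 25.1 and 20.2 CPM in the LysM-Cre mice. All 3 LysM-Cre mice, mouse 2 included, lay below the lowest control, and the log2 fold change was -0.61 ± 0.14 (SE; edgeR adjusted p = 0.113; DESeq2 adjusted p = 0.0059). Plk1, a mitotic kinase, read 26.03, 29.6 and 21.1 against 14.5, 21.04 and 16.3 CPM. Its groups came close without overlapping, with a log2 fold change of -0.56 ± 0.17 (SE; edgeR adjusted p = 0.201). Mki67, the proliferation marker Ki-67, read 155, 168 and 126 against 84.5, 112 and 105 CPM (log2 fold change -0.57 ± 0.14, SE; edgeR adjusted p = 0.129; DESeq2 adjusted p = 0.00226).

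**Figure D4:**
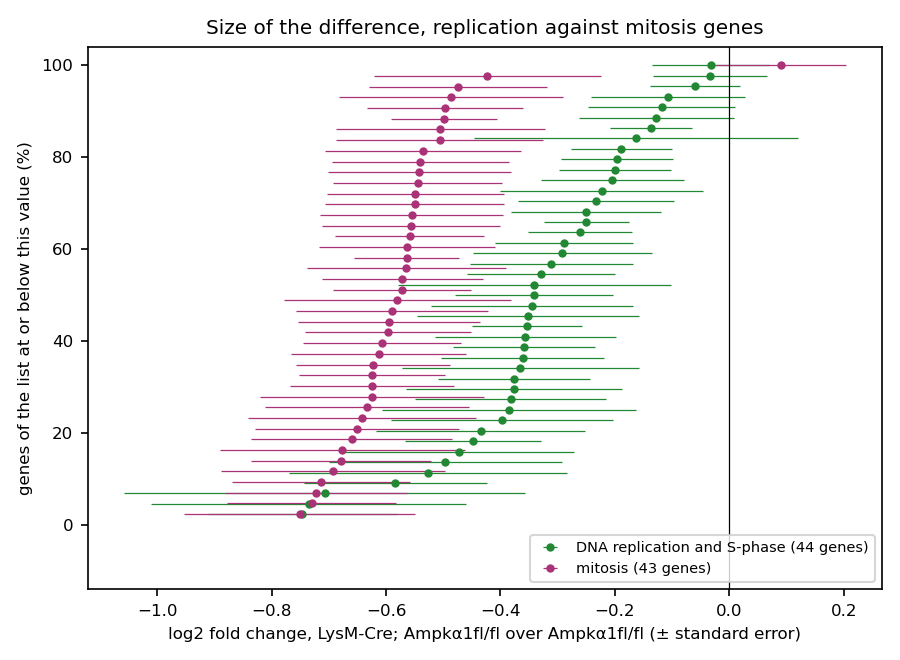
Log2 fold change between the groups with its standard error for 44 replication genes and 43 mitosis genes, each list sorted and spread from 0 to 100% on the vertical axis. The median was -0.34 for the replication genes and -0.57 for the mitosis genes, and only Pttg1 lay above 0.

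The mean log2 CPM of the 44 replication genes was 4.48, 4.57 and 4.30 in control mice 1, 2 and 3 and 3.91, 4.38 and 4.06 in LysM-Cre mice 1, 2 and 3. The mean of the mitosis genes was 4.82, 4.87 and 4.56 in the controls and 3.90, 4.39 and 4.22 in the LysM-Cre mice. Replication minus mitosis was therefore -0.34, -0.30 and -0.26 in the controls and 0.012, -0.015 and -0.16 in the LysM-Cre mice, with no overlap between the groups. LysM-Cre mouse 2 lay above control mouse 3 in the replication mean and below it in the mitosis mean. By position, LysM-Cre mouse 2 was below every control in 39 of the 43 mitosis genes, beside 10 of the 44 replication genes.

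The balance of replication to mitosis was tested only for Mcm2, Pcna and Rrm2 over Ccnb1 and Plk1, in 6 ratios of single genes. An exact permutation test of 3 against 3 mice, two-sided, cannot give a p below 0.1. These 3 replication genes fell less than Ccnb1 and Plk1, so the choice of genes set the direction of the ratios. Tk1 (log2 fold change -0.75), Gins1 (-0.74) and Cdc6 (-0.71) fell more than both, and their ratios were not taken. The log2 ratio of Mcm2 to Ccnb1 was 0.68, 0.63 and 0.57 in the controls and 1.06, 1.00 and 0.93 in the LysM-Cre mice. It was higher in all 3 LysM-Cre mice, by 0.37 (exact permutation p = 0.1, adjusted over the 6 ratios 0.12). The log2 ratio of Pcna to Ccnb1 was 1.49, 1.49 and 1.42 in the controls and 1.72, 1.73 and 1.73 in the LysM-Cre mice. It was higher by 0.26, again without overlap (exact permutation p = 0.1, adjusted 0.12). Mcm2 to Plk1, Pcna to Plk1 and Rrm2 to Ccnb1 were also higher without overlap, by 0.32, 0.20 and 0.16 (each exact permutation p = 0.1, adjusted 0.12). Rrm2 to Plk1 overlapped between the groups and differed by 0.10 (exact permutation p = 0.3, adjusted 0.3).

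**Figure D5:**
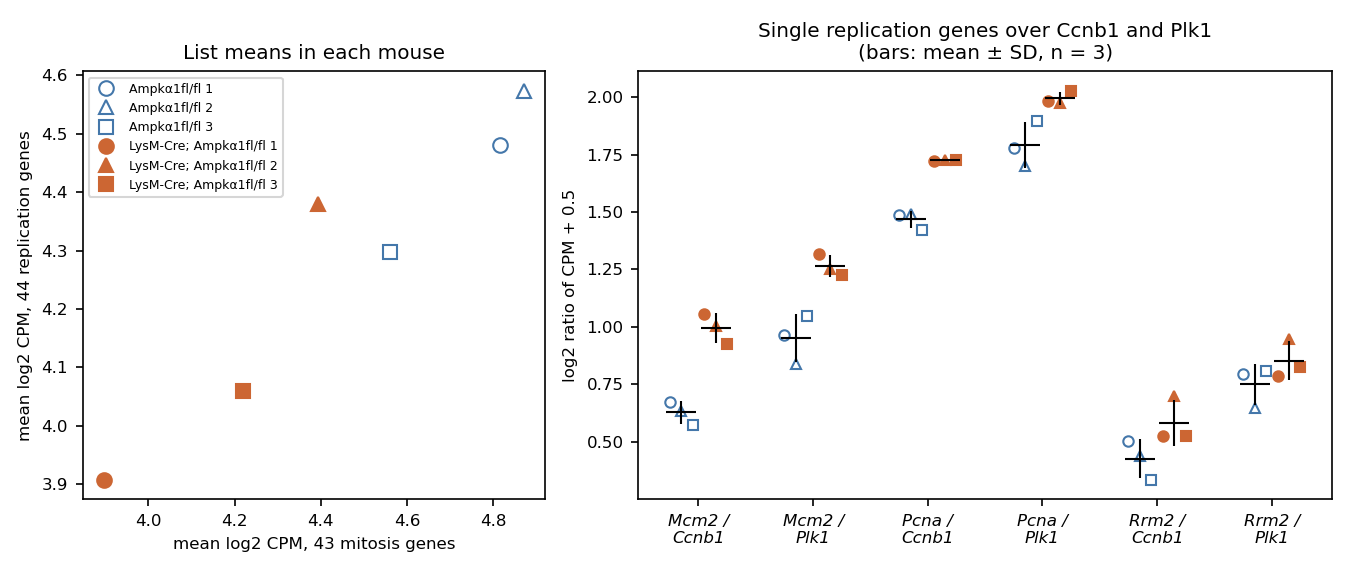
Left, mean log2 CPM of the 44 replication genes against that of the 43 mitosis genes in each mouse. Right, log2 ratio of Mcm2, Pcna or Rrm2 to Ccnb1 or Plk1 (CPM + 0.5) in each mouse with mean and SD (n = 3 per group). The groups do not overlap in the ratios of Mcm2 and Pcna, and the largest difference is 0.37 for Mcm2 to Ccnb1.

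In a list of 45 further replication genes, 43 were lower, with a median log2 fold change of -0.21. At an unadjusted edgeR p under 0.05, 13 were lower and 1 higher, where 8.55% of all genes tested were lower. Of the list, 0 were called by edgeR or by limma on TPM. DESeq2 called 1, Clspn, an adaptor of the replication checkpoint, where it called 2.67% of all genes lower. Gmnn, geminin, which blocks Cdt1 from loading the helicase again, was the lowest of them, at 7.62, 8.69 and 6.58 CPM in the controls and 3.23, 6.22 and 4.97 CPM in the LysM-Cre mice. Its groups did not overlap (log2 fold change -0.67 ± 0.25, SE; edgeR adjusted p = 0.286). Pold4, the smallest subunit of polymerase delta, was the highest, at 21.7, 22.9 and 21.9 against 27.4, 26.01 and 25.1 CPM. It was higher in all 3 LysM-Cre mice (log2 fold change 0.24 ± 0.068, SE; edgeR adjusted p = 0.181), in contrast to Pold1 and Pold2.

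In a list of 32 genes of G1 control, 23 were lower, with a median log2 fold change of -0.090. Of all genes, edgeR called 0.568% lower and DESeq2 2.67%. Cdkn2c, an inhibitor of CDK4 and CDK6, was the one that passed the edgeR test, and DESeq2 called Cdkn2c and Ccna2, cyclin A2. It read 35.3, 37.9 and 36.1 CPM in the controls and 22.6, 26.2 and 24.5 CPM in the LysM-Cre mice, and fell by 0.58 on the log2 scale (SE 0.075; edgeR adjusted p = 0.0301). With the replicate block its edgeR adjusted p was 0.0611, and over the 15 other settings tried its adjusted p ranged from 2.82e-05 to 0.163 and missed the threshold in 8, among them those without control mouse 1 (0.144), 2 (0.163) or 3 (0.0806) and without LysM-Cre mouse 1 (0.108) or 3 (0.0895). E2f8, a repressor of E2F targets, was the lowest at -0.67 ± 0.20 (SE; edgeR adjusted p = 0.184). Cdkn2b, another CDK inhibitor, was the highest at 0.43 ± 0.16 (SE; edgeR adjusted p = 0.275). Of 18 histone genes, 5 passed the filter on low counts, from H2ac11 at -0.69 ± 0.43 (SE) to H2aw at 0.23 ± 0.15 (SE). Of the 5, 0 were called by edgeR, DESeq2 or limma on TPM, and 1 was lower at an unadjusted edgeR p under 0.05 (8.55% of all genes tested).

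The mice with most skeletal muscle RNA had the lowest replication genes, though not in strict order. The summed level of 18 muscle genes was 256, 771 and 4269.8 CPM in control mice 1, 2 and 3 and 4620.2, 1389.7 and 12416 CPM in LysM-Cre mice 1, 2 and 3, and none was at 0 throughout. Control mouse 3 and LysM-Cre mice 1 and 3, which held the most muscle RNA, were the mice with the lowest mean of the replication genes, but LysM-Cre mouse 1 lay below LysM-Cre mouse 3, which held more muscle RNA. All 18 muscle genes were higher in the LysM-Cre mice, with a median log2 fold change of 1.82, and 0 were called by edgeR, DESeq2 or limma on TPM or had an unadjusted edgeR p under 0.05. With the muscle score as a covariate, Orc1, Gins2, Gins4 and Rfc2 were above 0, and the median of the mitosis genes was -0.43. Muscle RNA and group went partly together, so the covariate can take up part of the group difference. The parts of muscle RNA and of group cannot be told apart in these mice, and no cause was tested.

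Most erythroid and macrophage markers were lower in the LysM-Cre mice. Of the 9 erythroid genes tested, 8 were lower and 1 higher, Tfrc at 0.30 on the log2 scale. Of the 14 macrophage genes, 11 were lower and 3 higher, up to Cd68 at 0.25. The summed level of 13 detected erythroid genes of 14 listed was 2028 to 3006 CPM in the controls and 703 to 1017 CPM in the LysM-Cre mice, and 6 of the 9 tested were called lower by edgeR (1 with the replicate block): Hba-a1, Hba-a2, Hbb-bs, Hbb-bt, Alas2 and Slc4a1. The summed level of 14 macrophage genes was 1247 to 1304 CPM against 809 to 1049.6 CPM. Of the macrophage genes, 7 were lower and 1 higher at an unadjusted edgeR p under 0.05, 0 were called by edgeR or by limma on TPM, and 5 by DESeq2. Over all genes tested, 8.55% were lower at an unadjusted edgeR p under 0.05, and edgeR called 0.568% lower after adjustment. DESeq2 called 2.67% of all genes lower. With the replicate block, 1 of the macrophage genes was called by edgeR, Lyve1 (edgeR adjusted p = 0.049 with the block). Of the 11 tendon fibroblast markers, 7 were lower and 4 higher, with a median log2 fold change of -0.0087. The lowest of them, Dcn, decorin, fell by 0.45 on the log2 scale (edgeR adjusted p = 0.0301; 0.0611 with the block). Of the 5 cartilage markers tested, 2 were lower and 3 higher, from Col2a1 at -1.89 to Sox9 at 0.79. Acan, aggrecan, rose by 0.60 (edgeR adjusted p = 0.0298; 0.0634 with the block). The summed cartilage level overlapped, at 1453 to 3317 CPM in the controls and 1877 to 1979 CPM in the LysM-Cre mice. Of 6 cartilage genes, 3 were called higher by DESeq2, and of 6 endothelial genes, 6 were lower and 2 were called by DESeq2. The part of these cells in the difference of the replication genes was not tested. The strand setting of the counting is not given in the sources used here. Reads of 14 members, among them Tk1, Lig1 and Fen1, can therefore include reads of an overlapping gene that was tested. Gins1, Pola1, Prim2, Pold1 and Pole overlap only annotated loci that were not among the genes tested.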

How the data were processed

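RNA of 6 tendon samples (3 per group, each 1 mouse) was sequenced on a BGISEQ platform. For 65053 RefSeq transcripts the authors deposited estimated counts of reads, not normalized, TPM values scaled to transcript length and library total, and a normalized count (a signal), which equals the estimated count rounded up times 1 factor per library. The submitters' processing notes name build GRCm38.p6. The aligner and counting tool are not given in the sources used here. The 6 FPKM columns and 8 columns of averages were not used.

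Estimated counts were summed per gene and rounded. Of 18099 genes, 18049 (99.72%) matched a RefSeq symbol. Groups were compared with edgeR 4.0.16 in R 4.3.3 (TMM, filterByExpr, quasi-likelihood F test, Benjamini-Hochberg over 14261 genes, threshold 0.05). The fit was tested on simulated data. CPM were scaled by TMM, list means used a prior count of 2, and ratios used CPM + 0.5. Standard errors are the log2 fold change over the square root of F. Alternatives were DESeq2 1.42.0, limma 3.58.1 on log2(TPM + 1), other scalings and filters, a muscle covariate, a replicate block and each mouse left out.

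The labels give replicate numbers and no pairing of mice. The correlation of deviations from the group means was 0.184, 0.118 and 0.31 for the same numbers 1, 2 and 3. Control mouse 1 correlated more with LysM-Cre mouse 2 (0.501), and control mouse 2 with LysM-Cre mouse 3 (0.127). A pairing by number is therefore not established, and the replicate block is given only as an alternative setting. The members and gene lists were chosen with earlier results of these data known. Every member is named. Full values are given for the member with the lowest and the highest log2 fold change in each role, any member called, Mcm2, Pcna and Rrm2. Of the other replication, mitosis, G1 and histone lists, the lowest, the highest and any gene called by edgeR are named, with Prkaa1, Lyz2, Ccnb1, Plk1 and Mki67. A list of recombination and checkpoint genes is not reported here. The per-mouse values of Cdt1, the reads of Orc1, Clspn, Ccna2, Lyve1 and the promoters printed were added after their values were seen. At these totals, 3 reads per library were taken as the floor, and no member was at it.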

Additional observations from a re-analysis of the deposited data

How the results depend on the processing

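Genes called numbered 128 as reported, 688 with DESeq2, 68 with limma on TPM, 76 with the muscle covariate, 47 with the replicate block, and 8 to 276 with 1 mouse left out. Members called numbered 0, but 2 with DESeq2, and 0 to 2 with 1 mouse left out. Members lower at an unadjusted p under 0.05 numbered 14, but 4 with the muscle covariate, 25 with the replicate block and 5 to 34 with 1 mouse left out. The share of all genes beside these counts was taken only as reported, with the block and without LysM-Cre replicate 2. The highest counts with 1 mouse left out were those without LysM-Cre replicate 2. The replicate block changed no call of a member. Of single log2 fold changes, Orc1 (0.19), Gins2 (0.057), Gins4 (0.0052) and Rfc2 (0.067) were above 0 with the muscle covariate. With 1 mouse left out, Pola2 ranged from -0.101 to 0.058, Prim1 from -0.204 to 0.016 and Rfc2 from -0.107 to 0.066, each above 0 without control replicate 2, and Pola2 (0.013) also without LysM-Cre replicate 1. Outside the members, where settings were chosen after seeing the data, Pttg1 (-0.043) was below 0 with the muscle covariate. The cause was not tested. Medians, ratios and the remaining 648 values of single members kept their direction and their side of the threshold, with 4 members' values passing it as reported above. Depth limited Orc1 most, at 32 to 54 reads per mouse.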
